A study of Rattus norvegicus with 12 samples.

Results

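The axon injury genes of sensory neurons were followed on 12 single-colour arrays of rat sciatic nerve, dorsal root ganglia (DRG) and dorsal spinal cord. The list holds 10 genes: Atf3, Gal, Npy, Vip, Sprr1a, Gap43, Sox11, Gadd45a, Csrp3 and Flrt3. Members were found by matching the RefSeq accession of each probe to the gene, which gave 11 probes for 9 of the 10 genes among 17998 named probes for 15153 genes. No probe carried an accession of Sprr1a, so its level is not analysed here.

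Each array held RNA pooled from 3 adult female rats. Athymic nude rats (rnu-/-, Hsd:RH-Foxn1rnu), which carry a mutation of the thymus gene Foxn1 and are short of mature T cells, were sampled 7 days after injection. The rats that the labels call NORMAL (Sprague-Dawley), here wild-type, were sampled at 12 days, so rat type, strain and day cannot be told apart. All rats received the myelin basic protein peptide MBP84-104 (50 μg in 5 μL) in the left sciatic nerve. The controls were the right nerve, which received PBS by its label, the right DRG, and the left dorsal cord above the lumbar enlargement, set against the dorsal cord of the lumbar enlargement. The study's methods differ from the labels in the day, the number of rats and the wild-type genotype, for which they name heterozygous rnu+/- rats. With 1 array per condition, a ratio between sides has no replicate check.

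The cell bodies of sensory neurons lie in the DRG and send 1 axon branch into the peripheral nerve and another into the dorsal cord. When the peripheral branch is damaged, these neurons switch on a set of genes that includes transcription factors (Atf3, Sox11), neuropeptides (galanin, neuropeptide Y, VIP) and proteins of the growing axon (Gap43, Sprr1a). Because sensory neurons have their cell bodies in the ganglion, the injected-side and contralateral DRG were compared first. The question was whether injection of the peptide into the left nerve, beside PBS in the right, was accompanied by this set of changes. Atf3, Gadd45a and Flrt3 were also well above background on every nerve array, so a DRG value need not come from neurons alone.

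The DRG labels matched a marker of sensory neurons. Scn10a, a sodium channel of nociceptive sensory neurons, was at 37.7 to 41.6 times the array median on the 4 DRG arrays and was not well above background on the 8 arrays of nerve and cord. Of 8 sensory neuron marker genes on the array, all 8 were well above background on every DRG array. They did not single out DRG, as 6 were well above background on each cord array and 4 to 8 on the nerve arrays. Their summed level was 611 to 774 in DRG and 855 to 1011 in cord. Array median signals ranged from 15.4 (injected nerve of nude rats) to 74.9, and 59.5% to 76.9% of spots were well above background by the extraction software's flag. The number of arrays limits the precision, and among probes with 10 spots the log2 ratio varied between spots with an SD of 0.0929 to 0.123.

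Levels are given below as the spot signal divided by the median signal of the same array. They compare arrays for 1 gene and cannot rank genes. A fold written as "at least" belongs to a gene that was not well above background on the control array. It sets the injected side against the lowest signal of any probe well above background on that control array, or against the gene's own signal where that was higher. Such a gene was given a value only where its bright array lay above that bound, so the rule fixes its direction.

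The neuropeptide genes Vip and Gal and the muscle LIM protein gene Csrp3 were higher in the injected-side DRG of both rat types. In wild-type rats, 3 of 9 measured members were at least 2-fold higher and none was lower, against a background of 0.49% of 10826 genes higher and 0.517% lower. In nude rats, 3 of 8 were higher and none lower, against 0.682% and 0.388% of 9532 genes. Vip and Csrp3 entered these counts through the injected-side array alone, so that they had to differ, and with genes well above background on both arrays only Gal was past 2-fold in each rat type. The median log2 ratio of the measured members was 0.47 in wild-type and 0.42 in nude DRG, beside 0.01 and 0.02 for all genes. The nude median rests on the bounds of Vip and Csrp3 and was 0.0499 without them.

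Vip encodes vasoactive intestinal peptide, which intact sensory neurons hardly make. Its level in the wild-type DRG was 0.0725 on the contralateral side and 2.42 on the injected side. In the nude DRG it was 0.129 on the contralateral side and 5.63 on the injected side. Both contralateral arrays were not well above background for Vip and both injected-side arrays were. The log2 ratio was at least 3.00 (8.01-fold) in wild-type and at least 3.39 in the nude rats. It is smallest under normexp background correction, at 1.31 and 1.47.

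Gal encodes galanin, a peptide that modulates transmission in the dorsal horn. Its level rose from 16.4 to 56.8 in the wild-type DRG. In the nude DRG it rose from 26.6 to 83.1. The log2 ratio was 1.79 (3.45-fold) in wild-type and 1.64 (3.12-fold) in the nude rats, and the second Gal probe gave 1.84 and 1.65.

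Npy, the gene of neuropeptide Y, is a further peptide that damaged large sensory neurons are known for. Its level was 247 on the contralateral and 182 on the injected side of wild-type rats. In nude rats the levels were 137 and 117. Npy thus lay lower on the injected side in both rat types, with log2 ratios of -0.44 and -0.23, and its second probe gave -0.61 and -0.29. Under normexp background correction the ratios were -0.05 and -0.06, smaller than the SD between spots.

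The 3 neuropeptide genes are the ones whose upstream sequence is shown, because 2 of them moved together in the DRG and the third did not. Sequences are from RefSeq on the build GRCr8, which held upstream windows for 7 of the 10 genes, among them Sprr1a, Sox11, Gadd45a and Flrt3. The 250 bases before the start were searched on both strands for the AP-1 site (TGACTCA or TGAGTCA), the cAMP response element, CRE (TGACGTCA), and the CRE half-site (TGACG or CGTCA), which is also part of the full CRE. Of 33469 windows of this length, 4.05% held the AP-1 site, 1.59% the CRE and 18.2% the half-site. Capitals mark matches. For Gal, the window at chr1:210084573-210084822 (minus strand) is shown. For Npy it is chr4:80211861-80212110 (plus strand). For Vip only 30 bases at chr1:44470371-44470400 (plus strand) are shown, because its window overlaps the annotated gene.
Gal: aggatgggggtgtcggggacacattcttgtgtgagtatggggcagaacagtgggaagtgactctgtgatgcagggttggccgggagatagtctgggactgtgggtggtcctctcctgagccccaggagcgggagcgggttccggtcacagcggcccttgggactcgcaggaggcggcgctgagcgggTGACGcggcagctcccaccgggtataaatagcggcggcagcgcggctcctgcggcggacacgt
Vip: ggatcaccactgTGACGtctttcgaggagc
Npy: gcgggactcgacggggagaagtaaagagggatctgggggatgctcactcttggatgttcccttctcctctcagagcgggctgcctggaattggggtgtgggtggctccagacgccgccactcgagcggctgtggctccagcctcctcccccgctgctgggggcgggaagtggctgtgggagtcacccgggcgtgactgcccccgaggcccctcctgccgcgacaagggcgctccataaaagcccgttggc

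Counted back from the transcript start that the RefSeq window uses, the half-site lay at -63 to -59 for Gal and at -97 to -93 for Vip. For Vip that start is a later one than the first base of the annotated gene, so its half-site lies within the gene. The Npy window held none of these letters. Gadd45a held a half-site at -128 to -124. Sprr1a held the AP-1 site at -147 to -141 and at -117 to -111. These are matches of letters, and no binding was measured.

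Csrp3 encodes a cytoskeletal LIM protein of striated muscle that injured sensory neurons also make. Its level in the wild-type DRG was 0.206 on the contralateral and 2.05 on the injected side. In the nude DRG the levels were 0.26 and 2.17. Csrp3 was well above background only on the injected-side DRG arrays and on the injected wild-type nerve (0.768) among the 12 arrays. The difference between sides of the DRG was at least 6.80-fold in wild-type and at least 4.03-fold in the nude rats. Under normexp background correction the log2 ratios were 1.20 and 0.74, so the nude value was then below 2-fold.

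Because Csrp3 is a muscle gene as well, it was set beside a list of 13 skeletal muscle gene symbols, of which 11 were found on the array. In the wild-type DRG, 0 of 10 measured muscle genes were at least 2-fold higher, their median log2 ratio was 0.15, and their summed level was 29.3 on the contralateral and 32.2 on the injected side. In the nude DRG, 6 of 8 were at least 2-fold higher, their median was 2.12, and the summed level went from 17.8 to 47.4. Of the 3 brightest there, the fast muscle genes Myl11 and Tnnc2 were at least 16.9-fold and 5.81-fold higher, and the myoglobin gene Mb 1.06-fold. In the dorsal cord, between 5 and 9 of the 11 muscle genes were well above background and Csrp3 was not on any array. The plot of Csrp3 against the muscle genes shows the 12 arrays. The part of muscle RNA in the Csrp3 values was not tested in either rat type.

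**Figure D1:**
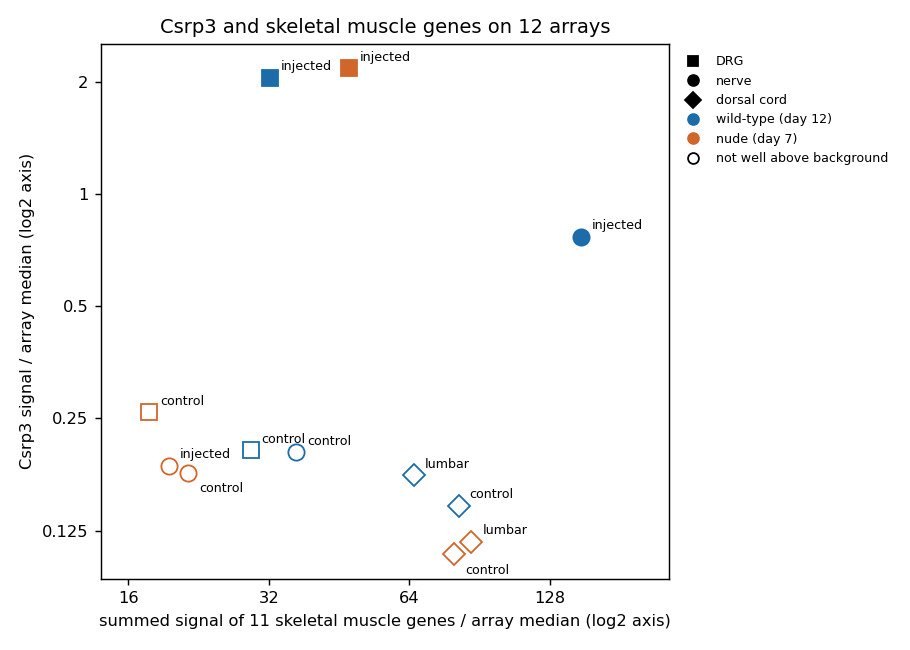
Csrp3 signal over the array median against the summed signal of 11 skeletal muscle genes over the array median on each of the 12 arrays, both on log2 axes, with open symbols for Csrp3 not well above background. The 2 injected-side DRG arrays lie at 2.05 and 2.17 on the vertical axis, above every other array. The summed muscle signal was highest on the injected wild-type nerve. The part of muscle RNA in the Csrp3 values was not tested.

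The transcription factor genes differed less. Atf3 is a stress-induced factor that is widely used as a marker of injured sensory neurons. Its level in the wild-type DRG was 5.45 on the contralateral and 10.9 on the injected side. In the nude DRG the levels were 5.01 and 8.67. The log2 ratios were 1.00 and 0.79. At 1.9993-fold, the wild-type value was just under the 2-fold threshold, and at 1.73-fold the nude value was further below it. Sox11, a factor of developing and regrowing neurons, was dim, with a level of 0.461 on the injected-side wild-type DRG array and not well above background on the other 3 DRG arrays.

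The remaining genes belong to axon growth, adhesion and the stress response. Gap43, a protein of growth cones, was at 33.5 and 42.1 in the contralateral and injected-side wild-type DRG. In the nude DRG it was at 58.0 and 59.9. The log2 ratios were 0.33 and 0.04, and rat types differed more than sides. Flrt3, a membrane protein in cell adhesion and axon guidance, had log2 ratios of 0.47 in wild-type and 0.06 in the nude rats. Gadd45a, a stress gene in growth arrest and DNA repair, had 0.39 in wild-type and -0.18 in the nude rats. For these 3 genes the nude ratios were smaller than the wild-type ones, and whether rat types differed was not tested, since each has 1 ratio.

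**Figure D2:**
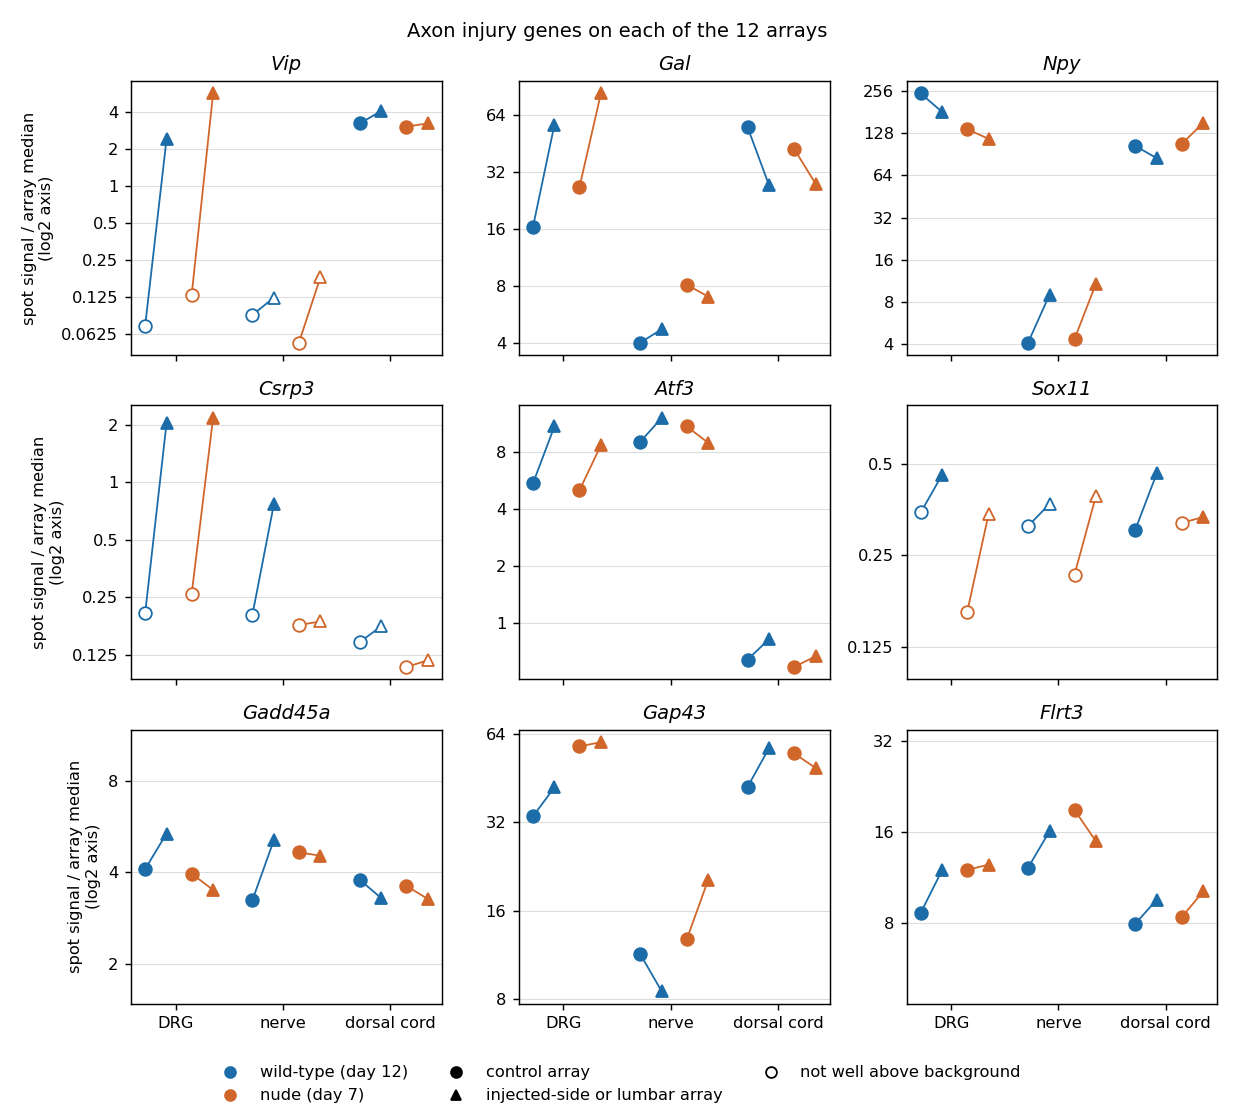
Spot signal over the array median (log2 axis, scaled separately for each gene) of 9 axon injury genes on the 12 arrays, with circles for control and triangles for injected-side or lumbar arrays, lines joining the pair and open symbols for signals not well above background. In the DRG, Vip, Gal, Csrp3 and Atf3 lie higher on the injected side in both rat types, and Npy lies lower.

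The side difference in the DRG was also fitted across all genes with limma, with rat type and side as terms, so that the 2 rat types stand in for replicates with 1 residual degree of freedom. It called 5 of 10377 genes (0.0482%), all higher on the injected side, and 500 genes had an unadjusted p under 0.05. Gal, well above background on all 4 DRG arrays, was among them (log2 difference 1.72 ± 0.18 SE, limma adjusted p = 0.011). Its call was lost under cyclic loess (limma adjusted p = 0.065) and with no filter and no floor (0.50). Vip and Csrp3 were called too, with fitted log2 differences of 3.19 and 2.39, but they passed the filter through the injected-side arrays alone and their control values were raised to the floor. Their calls are therefore no support beyond the levels themselves, and the fitted values are no bounds. Under normexp background correction the fitted differences were 1.39 and 0.97. Atf3 did not pass (0.90 ± 0.18, limma adjusted p = 0.30), except with normexp (limma adjusted p = 0.0021). Npy did not pass (-0.34 ± 0.18, limma adjusted p = 1.00). Gap43, Flrt3 and Gadd45a had log2 differences of 0.19, 0.26 and 0.11, all with a limma adjusted p of 1.00.

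The 2 other called genes, named after their values were seen, were Crisp3 and Cxcl14. Crisp3, a secreted cysteine-rich protein gene unrelated to Csrp3, was at 0.0681 and 2.20 in the contralateral and injected-side wild-type DRG and at 0.13 and 2.83 in the nude DRG. It was well above background on the 2 injected-side DRG arrays alone, so its call, too, is no support beyond the levels. Cxcl14, a chemokine gene, was at 1.20 and 3.36 in wild-type and at 0.639 and 1.65 in nude DRG. On the contralateral nude array Cxcl14 was not well above background.

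Other genes known to rise in DRG after axon damage were counted from a list of 26, of which 24 were on the array. In wild-type DRG, 2 of 19 measured genes were at least 2-fold higher and 18 had a log2 ratio above 0, with a median of 0.31. Of all 10826 genes, 0.49% were at least 2-fold higher and 52% lay above 0. The 2 past 2-fold were Reg3b, a secreted lectin of the injury response (2.85-fold, from 0.633 to 1.80), and Stmn4, a microtubule regulator of neurons (2.53-fold, from 0.588 to 1.49). In nude DRG Stmn4 was at 0.71 on the contralateral array, where it was not well above background, and at 0.692 on the injected-side array, and it gave no bound. Below them came Arg1 with a log2 ratio of 0.95 and Cacna2d1, the calcium channel subunit that gabapentin binds, with 0.83. In nude DRG, 0 of 16 reached 2-fold and 13 lay above 0, with a median of 0.15. Of all 9532 genes there, 0.682% were at least 2-fold higher and 53.7% lay above 0. In each rat type some genes of the list, in nude DRG Arg1 and Gch1, were not well above background on the contralateral array. The rule fixed their place above 0, so the list's counts above 0 and its medians are partly set by it. Reg3b was at 6.47 and 7.68 on the 2 nude DRG arrays, above both wild-type levels. The largest nude log2 ratios were those of Arg1 (at least 0.62), Gch1 (at least 0.43), Adcyap1 (0.34) and Tubb2b (0.34), and Cacna2d1 was at -0.12. In wild-type DRG, where it was well above background on both arrays, Gch1 had a log2 ratio of -0.44, the lowest of this list.

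No gene known to fall after axon damage reached 2-fold in the DRG. Of 19 such genes, which include channels, neurofilaments and the peptides of nociceptors, 18 were measured in each rat type. In both, 0 were at least 2-fold changed, with medians of 0.04 in wild-type and -0.01 in nude DRG. Of all genes, 0.517% were at least 2-fold lower in wild-type and 0.388% in nude DRG, so a count of 0 lies near the share of all genes. The potassium channel gene Kcnd3 had the lowest log2 ratio, -0.92 in nude rats, and was at 0.17 in wild-type. Nefl, Nefm and Nefh, the neurofilament genes, had log2 ratios of 0.38, 0.37 and 0.34 in wild-type DRG and of -0.30, -0.11 and -0.36 in nude DRG. Markers of satellite and Schwann cells, macrophages and sensory neurons gave 0 genes past 2-fold in either DRG comparison, of 7 or 8 measured each. Of 3 adipocyte markers, 1 was at least 2-fold higher in nude DRG. In bulk tissue, fewer cells of a type and less RNA per cell cannot be told apart.

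**Figure D3:**
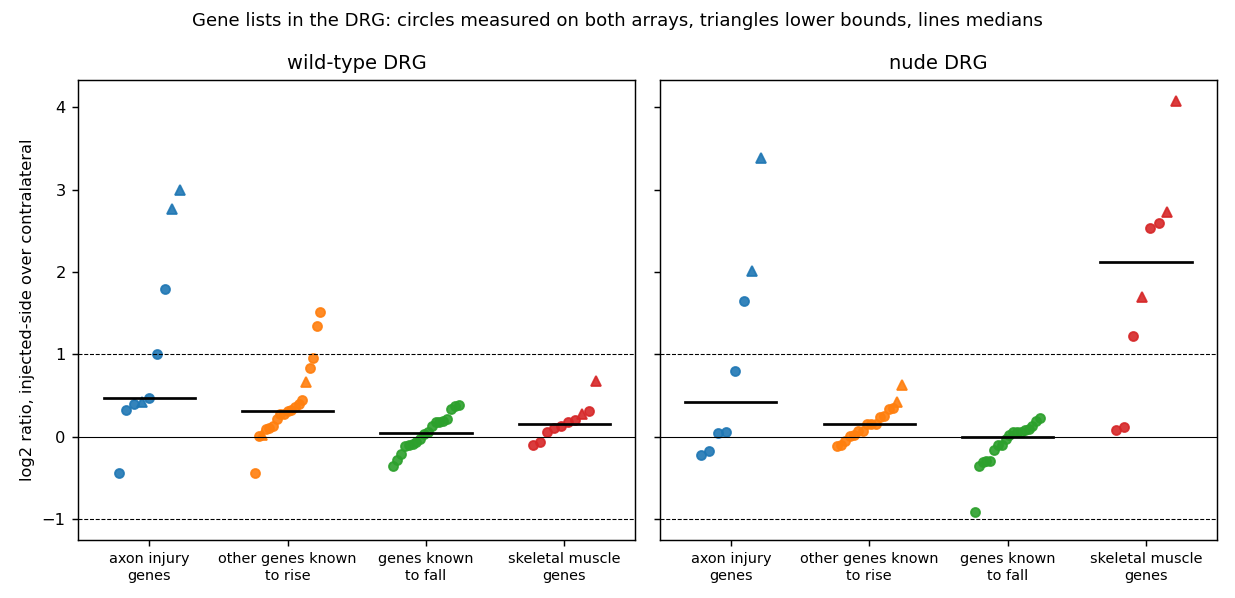
Log2 ratio of the injected-side over the contralateral DRG for each measured gene of 4 lists in wild-type and nude rats, with circles for genes well above background on both arrays, triangles for lower bounds and black lines for medians. The list medians in wild-type rats are 0.47, 0.31, 0.04 and 0.15, and in nude rats the muscle genes stand at 2.12.

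The sciatic nerve holds axons, Schwann cells and immune cells but few neuronal cell bodies. Here the peptide-injected nerve was compared with the contralateral nerve, which received PBS by its label. By the labels, the comparison thus sets peptide against PBS and holds no uninjected nerve. Npy was the member that differed most alike in both rat types. Its level was 4.08 in the contralateral and 8.98 in the injected wild-type nerve. In nude nerve the levels were 4.34 and 10.8. The log2 ratios were 1.14 and 1.31, and the second Npy probe was more than 2-fold higher in both rat types as well. Under normexp background correction the ratios were 0.90 and 0.24. In the DRG of the same rats the Npy ratios were below 0.

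In wild-type nerve, 2 of 7 measured members were at least 2-fold higher, Npy and Csrp3 (at least 2.07-fold), and none was lower, where 4.68% of 10208 genes were higher and 4.09% lower. Csrp3 was higher there beside the muscle genes, of which 6 of 10 were at least 2-fold higher, with Myl11 at 17.8-fold and a summed level going from 36.6 to 149. Its relation to muscle RNA was not tested. In nude nerve, 1 of 6 members was at least 2-fold higher, where 7.52% of 9451 genes were higher and 13.5% lower. The nude comparison rests on the dimmest array, and the median log2 ratio of all its genes was -0.38.

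Atf3 had smaller ratios between sides in the nerve than in the DRG. Its level was 9.04 in the contralateral and 12.1 in the injected wild-type nerve, a log2 ratio of 0.42. In nude nerve it was 10.9 and 8.93, a log2 ratio of -0.28. Vip and Sox11 were not well above background on any of the 4 nerve arrays. Gal was at 4.03 and 4.74 in wild-type and at 8.14 and 7.05 in nude nerve, so that rat types lay further apart than sides. Gap43 was at 11.4 and 8.52 in wild-type and at 12.8 and 20.4 in nude nerve. Gadd45a had log2 ratios of 0.66 in wild-type and -0.03 in the nude rats, and Flrt3 of 0.40 and -0.34.

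In the dorsal cord, lumbar segments were compared with more rostral ones, so that the level of the cord and the injection cannot be told apart. Gal was the member that differed most. Its level was 55.2 in the rostral and 27.3 in the lumbar wild-type cord. In nude cord it was 42.5 and 27.8. The log2 ratios were -1.02 and -0.61, which is opposite in sign to the DRG. The wild-type value was at least 2-fold lower at the median scaling but under 2-fold after the 75th percentile, quantile or loess scaling and in the values of the authors.

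In wild-type cord 1 of 8 measured members was at least 2-fold lower and none higher, where 0.832% of 11060 genes were lower and 0.913% higher. In nude cord 0 of 8 were changed, against a background of 0.777% of 10684 genes higher and 0.59% lower. The members' median log2 ratio was 0.30 in wild-type and 0.07 in nude cord. Npy was at 104 and 85.1 in the rostral and lumbar wild-type cord. In nude cord it was at 108 and 152. The log2 ratios of -0.29 and 0.48 had opposite signs. Vip, at 3.03 to 4.06 on the 4 cord arrays, differed little, with log2 ratios of 0.34 and 0.08. Sox11 was well above background on 3 of the 4 cord arrays, with levels of 0.304 to 0.466. Its log2 ratio was 0.62 in wild-type cord, the highest of the members there, and at least 0.06 in nude cord. The ratios of Gap43, Atf3, Flrt3 and Gadd45a lay between -0.20 and 0.44.

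**Figure D4:**
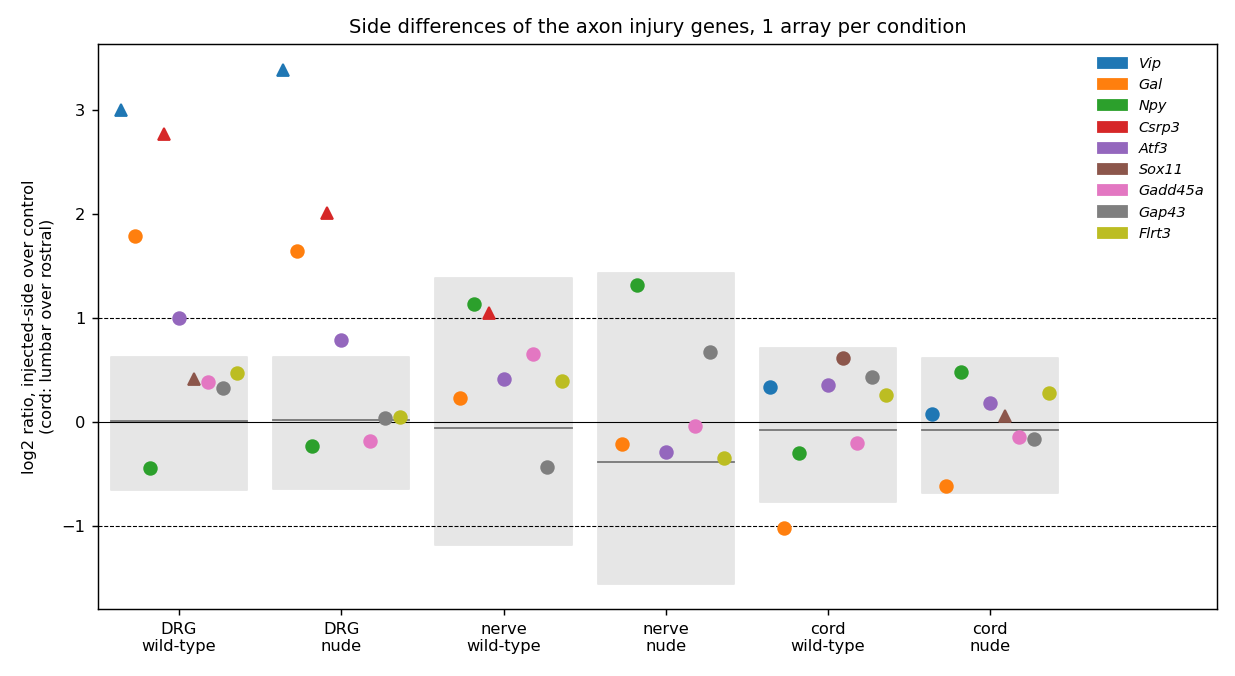
Log2 ratio of the injected side over its control, or of lumbar over rostral cord, for 9 axon injury genes in 6 comparisons of 1 array against 1, with triangles for lower bounds, grey boxes for the middle 95% of all genes, grey lines for their median and dashed lines at 2-fold. Vip, Gal, Csrp3 and Atf3 lie above the grey box in both DRG comparisons, and Gal lies below it in the wild-type cord.

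Across tissues, limma compared the 4 arrays of DRG with the 4 of nerve and the 4 of cord, with rat type as a term and both sides included. These arrays differ in rat type and side, so they are not replicates of 1 condition. Between DRG and nerve, 4 of 9 members were called, where 11.7% of 11652 genes were called higher in DRG and 31.6% lower. The count of members thus lies near the share of all genes called in either direction. The peptide and growth genes were higher in DRG: Npy by 4.67 ± 0.35 on the log2 scale (SE, limma adjusted p = 6.0e-07), Gal by 2.72 ± 0.43 (limma adjusted p = 0.00032) and Gap43 by 1.90 ± 0.20 (limma adjusted p = 1.4e-05). Leaving out any 1 array kept Npy between 4.42 and 4.96, Gal between 2.37 and 3.09, and Gap43 between 1.78 and 2.07. Flrt3 was lower in DRG by this fit (log2 difference -0.45, limma adjusted p = 0.038), a call that was lost in 8 of the alternatives. These were 75th percentile, quantile and loess scaling, normexp, the values of the authors, no filter, control arrays alone and slide as a block. Slide was inferred from the scan date. The limma adjusted p of these alternatives was 0.0597 to 0.504. It was also lost on leaving out either contralateral DRG array, the injected-side nude DRG, the contralateral nude nerve or the injected wild-type nerve (limma adjusted p 0.0644 to 0.128). Vip, not called (1.76 ± 0.73 SE, limma adjusted p = 0.069), was called without the contralateral nude DRG array (2.27, limma adjusted p = 0.0319) or the wild-type one (2.46, limma adjusted p = 0.011). Csrp3 was called without the latter (1.63, limma adjusted p = 0.0292). Both genes were well above background on 2 of the 4 DRG arrays, and their other values were raised to the floor.

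Atf3 was high in both peripheral tissues. Its mean centred log2 level was 2.83 ± 0.54 in DRG and 3.34 ± 0.21 in nerve (SD, n = 4 arrays each), a difference of -0.51 with a limma adjusted p of 0.0996. Over control arrays alone, DRG was lower than nerve by a log2 difference of -0.92 (limma adjusted p = 0.013), and without the injected-side wild-type DRG array the value was -0.71 (limma adjusted p = 0.0262). Against cord, Atf3 was higher in DRG by 3.41 ± 0.23 on the log2 scale (SE, limma adjusted p = 2.4e-07), with a mean of -0.57 ± 0.21 in cord (SD, n = 4 arrays).

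Between DRG and cord, 2 of 9 members were called, Atf3 and Csrp3, where 27.1% of genes were higher and 32.6% lower in DRG. Csrp3 had a log2 difference of 2.15, but it entered through its high DRG arrays and stood at the floor on all 4 cord arrays, so the call is no independent support. The 3 neuropeptide genes and Gap43 were not called, and all 4 were well above background on every cord array. Under normexp background correction Gap43 was called lower in DRG (-0.62, limma adjusted p = 0.0127). Gal had a mean centred log2 level of 5.24 ± 1.05 in DRG and 5.19 ± 0.49 in cord (SD, n = 4 arrays each). Over control arrays alone, Gal was lower in DRG by a log2 difference of -1.21 (limma adjusted p = 0.0125). Npy was higher in DRG by 0.79 over these arrays (limma adjusted p = 0.0416). Vip was called lower in DRG over them (-2.95, limma adjusted p = 0.000114), but it entered through its cord arrays alone. Its contralateral DRG values were raised to the floor, so that call is no independent support. Without the injected-side nude DRG array Vip was called lower in DRG (-2.23, limma adjusted p = 0.00908), again with both contralateral DRG values at the floor. Flrt3 was called higher in DRG after 75th percentile, quantile or loess scaling and in the values of the authors, with log2 differences of 0.49 to 0.53.

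The genes whose levels followed the members most closely over the 12 arrays were found by Pearson's r among 10368 genes well above background on at least 6 arrays. The arrays share tissue, scan date and rat, so r mostly follows tissue. For Atf3 they were Emcn (0.987), Adam19 (0.986) and Casp4 (0.986). For Gal they were Ppp1r3d (0.950), Grik2 (0.946) and Gpkow (0.915). For Npy they were Gp1bb (0.989), Dnm3 (0.985) and Hey2 (0.983). For Gap43 they were Hsf4 (0.974), Atp6v1e1 (0.966) and Kcnh1 (0.962). Among the members themselves, Gal followed Gap43 (0.897), Npy (0.843) and Vip (0.831), while Atf3 ran against all 4 of these, with r between -0.628 and -0.477.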

How the data were processed

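Cy3-labelled total RNA was hybridised to Agilent Rat 8x60K arrays. For the intensity values, the authors extracted the deposited spot signals with Feature Extraction, version 10.5 by the processing notes and 10.7.3.1 per the file headers. The deposited log2 values of the value table are the authors' normalized values, whose sorted columns differ by at most 0.00153. The other values are 0 or 1 flags that the authors' software set per spot. Outlier spots were dropped, log2 signals of a probe's spots were averaged, and each array's median was subtracted, as the methods name. The brightest probe stood for a gene. A probe was well above background if over 0.5 of its spots were. Dim values were raised to the array's floor, the lowest signal among probes well above background. A gene entered a comparison if well above background on both arrays of the pair, or on 1 array where its value there lay above the bound of the other, and a fit if on at least 2 arrays.

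Fits used limma 3.58.1 in R 4.3.3 with Benjamini-Hochberg adjustment over all genes and a threshold of 0.05. The code was tested on simulated data. Python 3.11.15, numpy 2.4.6, pandas 2.3.3 and matplotlib 3.10.9 were used. The t-test of the study's methods could not be fitted without replicate arrays. Slides were inferred from the scan date in the file headers, and arrays with the same date were taken to share a slide. By this, slide 2 held the DRG and cord of wild-type rats and slide 1 all others. In these tissues slide thus cannot be told apart from rat type. Both arrays of each pair shared a scan date. Alternatives were other scalings, background correction, filters, probes and thresholds.

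All 10 members are named. Of the other axotomy lists, genes past 2-fold in DRG and up to 4 of the largest otherwise were to be named, and of further lists counts and the 3 brightest genes. Crisp3 and Cxcl14 were named outside this rule, after their values were seen. The members and lists were chosen with earlier results of these data known. Nothing says that the pools came from separate experiments, so p-values measure only the spread between these arrays.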

Additional observations from a re-analysis of the deposited data

Results flagged for a closer look

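Some members differed between sides in opposite directions in the 2 rat types, each by more than 1 SD between spots. Each rat type has 1 ratio, so the difference was not tested. In DRG this held for Gadd45a, whose log2 ratio was higher in wild-type than in nude rats by 0.57 (0.39 against -0.18). In nerve it held for Atf3 with a difference of 0.70 (0.42 against -0.28), Gal with 0.44 (0.23 against -0.21), Flrt3 with 0.74 (0.40 against -0.34) and Gap43 with -1.10 (-0.43 against 0.68). In the nude nerve comparison the median of all genes was -0.38, and the signs of Atf3, Gal and Gap43 turned there under 3, 4 and 1 of 9 alternatives. In cord it held for Npy with -0.77 (-0.29 against 0.48) and Gap43 with 0.60 (0.44 against -0.16).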

How the results depend on the processing

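Of 404 recomputed values of single-gene log2 ratios, each ratio under up to 9 alternatives, 327 lay within the SD between spots of the reported ratio, 77 lay further, and no ratio past 2-fold changed sign. The cause of the changes below was not tested, except that fewer genes or arrays enter under the stricter filter and the array subsets. The members' median log2 ratio was 0.90 in wild-type DRG and 0.0904 in wild-type cord under normexp. In nude DRG it was 0.0499 with only genes above background on both arrays, and 0.79 with no filter and no floor. In nude nerve it was 0.17 after the 75th percentile, 0.12 after quantile normalization, 0.17 after cyclic loess, -0.79 under normexp, 0.12 in the authors' values and 0.0603 with no filter. With that stricter filter, 1 member was past 2-fold in wild-type DRG, 1 in nude DRG and 1 in wild-type nerve. Counts past 2-fold in wild-type nerve were 1 after quantile normalization, 1 in the authors' values and 0 under normexp. In nude nerve they were 2 under normexp, where Atf3 (-1.06) and Flrt3 (-1.22) were lower and Npy (0.24) was no longer past 2-fold, and 2 with no filter, Npy and Vip, the latter not well above background on either array. In wild-type cord they were 0 after the 75th percentile, quantile, loess and in the authors' values. At a 1.5-fold threshold 2 members were changed in nude nerve, 2 in wild-type cord and 1 in nude cord. At 3-fold, 0 were changed in wild-type nerve, 0 in nude nerve and 0 in wild-type cord.

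The limma count of members with a side difference in DRG was 1 under cyclic loess, 1 with no filter and 1 with genes above background on every array. Over all genes, 5 calls became 13 higher and 1 lower after the 75th percentile, 14 higher and 1 lower with the mean of probes, 23 under normexp, 2 with no filter and 1 under cyclic loess or the stricter filter. The count of members differing between DRG and cord was 4 over control arrays, where Vip entered through its cord arrays alone. It was 1 with genes above background on every array. Leaving out 1 array gave 2 to 3 members there and 3 to 5 between DRG and nerve.

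No called difference changed sign. Of those not called, Gadd45a between DRG and nerve (-0.05) became 0.18 after the 75th percentile, 0.0537 over control arrays, 0.21 under loess, 0.0022 under normexp, 0.12 after quantile normalization and 0.12 in the authors' values, and ranged from -0.22 to 0.0356 without 1 array. Sox11 between DRG and nerve (0.25) became -0.0327 with no filter and ranged from -0.0452 to 0.54 without 1 array. Between DRG and cord, Sox11 (0.34) became -0.0140 under loess and -0.19 with no filter. Gap43 (-0.10) became 0.0756 after the 75th percentile, 0.0830 after quantile normalization and 0.0804 in the authors' values, and ranged from -0.21 to 0.0552 without 1 array. Gal (0.05) became -1.21 over control arrays and -0.45 under normexp, and ranged from -0.29 to 0.43 without 1 array. Gadd45a (0.26) became -0.0556 and Flrt3 (0.31) -0.16 under normexp. No array could be left out of the DRG side fit, which has 1 residual degree of freedom. Signals near the floor, as of Vip, Csrp3 and Sox11, limit the folds to bounds.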
